A study of Saccharomyces cerevisiae with 51 samples.

Results

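The genes described here are 8 meiotic genes of budding yeast, of 6977 genes listed in the deposited tables. GMC2, MAM1, SPR3 and SPO11 were selected on their higher RNA in the arp5 deletion, so their genotype difference is given as values with no test. IME1, IME2, NDT80 and UME6 were added as regulators of the meiotic program. All 8 are in both RNA tables, and 2 of them, IME1 and IME2, are in the table of chromatin accessibility. All 8 passed the filter of a mean of at least 1 FPKM over the cycle libraries and over the rapamycin libraries. GMC2, with a mean of 0.924 FPKM in wild type, passed it in the cycle libraries only through the arp5 deletion. SPR3, with a mean of 0.846 FPKM in the rapamycin controls, passed it in the rapamycin libraries only through the treated groups.

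The study has 51 Saccharomyces cerevisiae samples. RNA-seq and ATAC-seq (sequencing of DNA that a transposase can reach) were done on CEN.PK cells in continuous culture, in which metabolism oscillates. The groups are the genotype CEN.PK, called wild type here, and CEN.PK ARP5::KAN, called the arp5 deletion, which lacks a subunit of the INO80 chromatin remodeler. Each was sampled at 6 labelled phases, RC start, RC mid, OX mid, OX late, RB start and RB late, with libraries A and B of each. OX, RB and RC are the oxidative, reductive building and reductive charging phases of the yeast metabolic cycle. A and B are technical replicates of the same culture, so p-values for phases measure technical spread, and each genotype is 1 culture. The p-values for the genotype difference in RNA rest on the spread between phases. With 1 culture per genotype, the deletion and any other difference between the cultures cannot be told apart. In the rapamycin experiment, asynchronous mid-log BY4741 cells were given 30 nM of the TORC1 inhibitor rapamycin for 45 or 90 min, with 2 biological replicates per group. The control's treatment text also mentions rapamycin, but its title calls it the control, and it was treated as such. The sources used here do not give the ploidy or mating type of the cultures.

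In yeast, the entry into meiosis is controlled by starvation and cell type. IME1 encodes the transcription factor that starts the program, and Ume6 is the DNA-binding protein that keeps early meiotic genes off during growth and, joined by Ime1, helps to turn them on. The kinase Ime2 acts downstream of Ime1 and promotes the expression of NDT80, the transcription factor of the middle genes for meiotic divisions and spore formation.

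The cycle libraries held 5.02 to 9.67 M reads on genes and the rapamycin libraries 9.44 to 13.6 M, as recovered from the FPKM steps. ARP5 itself ran from 46.4 to 55.7 FPKM in wild type, and 11 of 12 arp5 libraries list it at 0. The phase labels of the cultures do not line up by transcript profile. Over 4117 genes that cycled in either genotype, each arp5 phase correlated negatively with its namesake in wild type (r from -0.85 to -0.44), and the best match was always another label, with r from 0.52 to 0.86. A direction at a single phase therefore holds for the libraries as labelled. The ranges and medians over the libraries of a genotype do not use the labels and are given first. The SE and p of the genotype differences do use them, since that fit pairs the genotypes by phase label.

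GMC2 encodes a protein that works with Ecm11 in building the synaptonemal complex, which joins paired chromosomes. In wild type its 12 libraries ran from 0 to 3.03 FPKM with a median of 0.594, and 44 reads in all carried those values, 0 to 12 per library. In the arp5 deletion they ran from 5.71 to 11.1 FPKM with a median of 9.09, from 435 reads. Every arp5 library was above every wild-type library, and the mean over phases was 9.48 times higher. On the log2(FPKM + 1) scale, which understates changes of low genes, the difference was 2.45 ± 0.26 (SE over 6 phases). It was 3.60 with a pseudocount of 0.1. GMC2 lies at chrXII:1024189-1024837 on the plus strand (RefSeq R64). Its FPKM gave whole reads at a length of 567 bases, shorter than its span of 649 bases.

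MAM1 encodes a subunit of monopolin, which makes sister kinetochores act as one in the first meiotic division. It ran from 2.68 to 7.89 FPKM in wild type (median 3.91) and from 16.0 to 36.1 FPKM in the arp5 deletion (median 28.1). The ranges did not touch, and the difference was 2.43 ± 0.23 on the same log2 scale. SPR3 encodes a septin of the spore membrane. It ran from 2.41 to 4.37 FPKM in wild type (median 3.02) and from 7.96 to 28.6 FPKM in the deletion (median 20.8), a difference of 2.26 ± 0.23. SPO11 encodes the enzyme that makes the double-strand breaks that begin meiotic recombination. It ran from 2.04 to 6.81 FPKM in wild type (median 3.20) and from 10.4 to 19.8 FPKM in the deletion (median 14.8), a difference of 1.85 ± 0.19. These 3 genes thus function at different stages, breaks, first division and spore formation, and all 3 were low but measurable in wild type, with 308 to 374 reads each over the 12 libraries. MAM1 is at chrV:372326-373234 (plus strand), SPR3 at chrVII:607563-609101 (plus) and SPO11 at chrVIII:62961-64157 (minus).

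A call over the cycle needed an adjusted p under 0.05 with at least a 2-fold change in FPKM + 1. The 2-fold limits of the RNA calls below are on this scale. Over all genes, 1.01% were called higher in the arp5 deletion and 0.507% lower, and 2.38% had every arp5 library above every wild-type library. Since the 4 genes were selected on this contrast, nothing is read from their place in it. In bulk RNA, more cells that express a gene and more RNA per cell cannot be told apart.

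The 4 regulators differed by under 2-fold between genotypes, and 1 of them, NDT80, passed the adjusted p. The share of all genes that passed the adjusted p alone was not counted. NDT80 ran from 9.30 to 14.0 FPKM in wild type and from 18.5 to 27.0 FPKM in the arp5 deletion, with medians of 11.4 and 21.6. Every arp5 library was above every wild-type library. Its difference of 0.91 ± 0.14 had an adjusted p of 0.0337 (limma, Benjamini-Hochberg) and was under the 2-fold that a call needs. Leaving out any 1 phase raised that p to between 0.0616 and 0.153, with log2 differences of 0.80 to 0.95, and it was 0.0712 after quantile normalization. With no phase block, it was 0.000381 for the same difference.

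IME1 ran from 8.89 to 32.0 FPKM in wild type (median 13.2) and from 9.07 to 41.5 FPKM in the deletion (median 23.4). IME2 ran from 1.20 to 7.90 FPKM (median 3.42) and from 4.13 to 9.66 FPKM (median 6.35). UME6 ran from 16.5 to 45.8 FPKM (median 26.5) and from 20.5 to 38.3 FPKM (median 27.0). The genotypes overlapped for all 3 genes. Their differences were 0.44 ± 0.43 for IME1, 0.70 ± 0.30 for IME2 and 0.07 ± 0.20 for UME6, with adjusted p of 0.732, 0.332 and 0.948 (limma), and none passed the test. The RNA of the repressor gene UME6 was at about the same mean level in both genotypes (27.4 and 27.9 FPKM over the phases), and its direction turned when OX late or RB start was left out. The levels of Ume6 and Ime1 proteins were not measured.

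**Figure D1:**
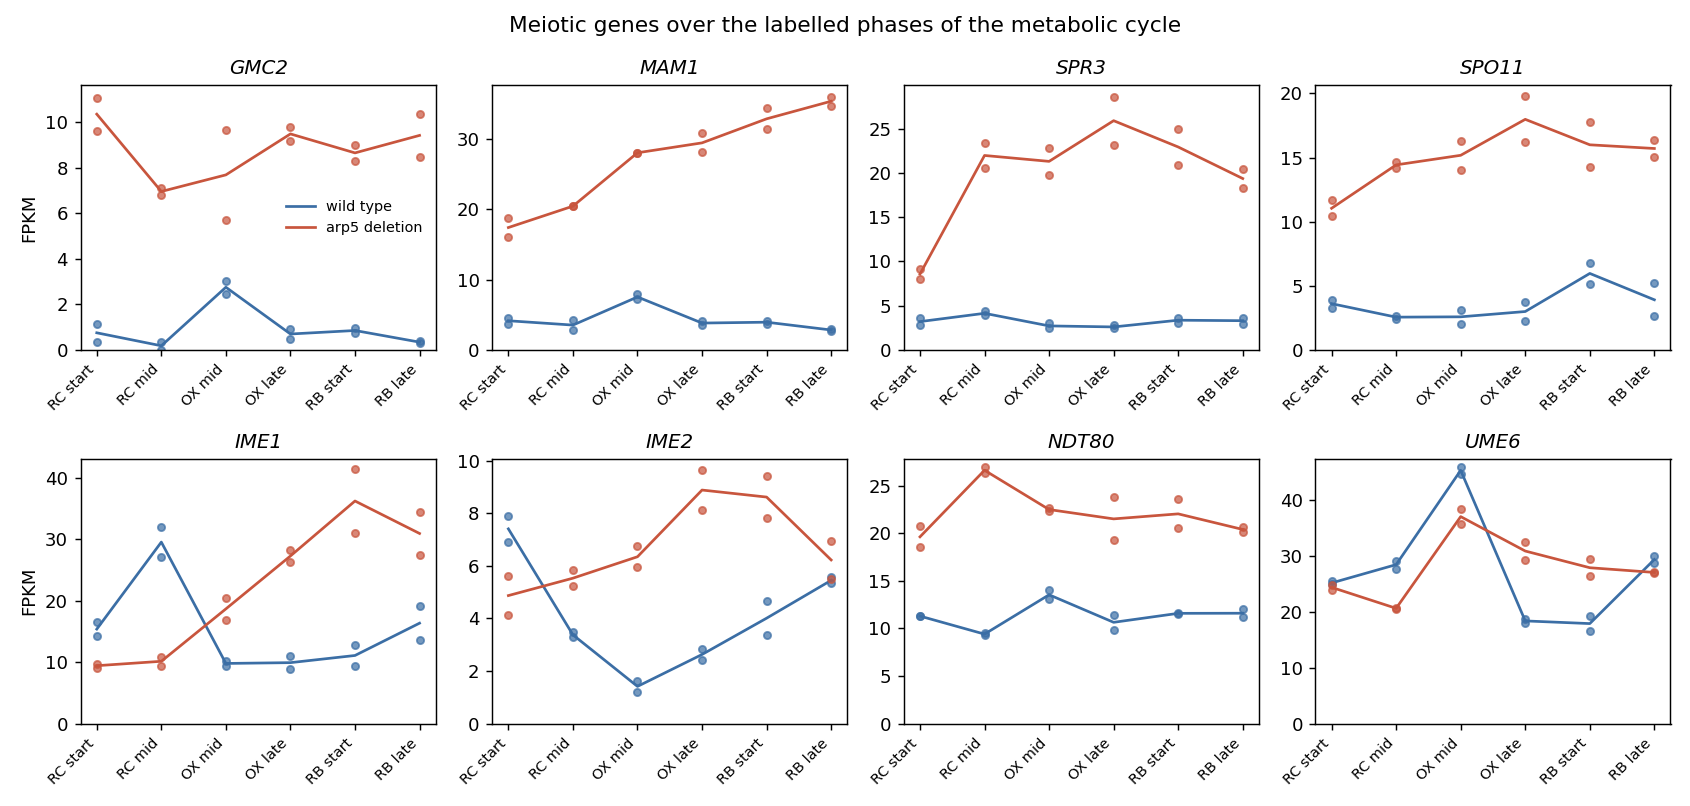
FPKM (vertical axes, from 0) of the 8 genes at the 6 labelled phases (horizontal axes), with points for libraries A and B and lines through their means, wild type in blue and the arp5 deletion in red. The curves of GMC2, MAM1, SPR3, SPO11 and NDT80 stay apart at each label, while those of IME1, IME2 and UME6 cross.

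How the 8 genes moved over the labelled phases was tested apart from the mean difference. In wild type, 5 of 8 passed the test for cycling, beside 62.1% of all genes tested. It was an F test in limma, with a range of phase means of at least 1 in log2(FPKM + 1). IME1 was highest at RC mid, at 32.0 and 27.1 FPKM in libraries A and B. Its lowest mean was at OX mid, at 10.2 and 9.40, with OX late overlapping at 10.9 and 8.89. IME2 was highest at RC start, at 6.92 and 7.90 FPKM, and lowest at OX mid, at 1.20 and 1.63. UME6 was highest at OX mid, at 45.8 and 44.6 FPKM. Its lowest mean was at RB start, at 19.2 and 16.5, with OX late overlapping at 17.9 and 18.7. GMC2 and MAM1 were also highest at OX mid in wild type, GMC2 at 2.46 and 3.03 FPKM and MAM1 at 7.17 and 7.89 FPKM. The log2 ranges were 1.498 for IME1, 1.80 for IME2, 1.30 for UME6, 1.68 for GMC2 and 1.16 for MAM1, with adjusted p of 3.33e-06, 1.15e-06, 1.92e-10, 0.000278 and 7.12e-06. The range of GMC2 rests on the 44 wild-type reads of a gene that entered the test through its level in the deletion, and it was 3.74 with a pseudocount of 0.1. SPO11 reached 0.97 (adjusted p = 0.00758), SPR3 0.52 (0.0509) and NDT80 0.48 (0.00586). With a pseudocount of 0.1, SPO11 had a range of 1.20 (adjusted p = 0.00709, same F test) and passed. The count of 5 thus depends on that choice.

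In the arp5 deletion, 2 of 8 passed, beside 32.3% of all genes. They were SPR3, with 7.96 and 9.16 FPKM at RC start and 23.2 and 28.6 at OX late (log2 range 1.49, adjusted p = 1.38e-06), and IME1, with 9.07 and 9.76 FPKM at RC start and 31.0 and 41.5 at RB start (range 1.82, adjusted p = 8.49e-08). MAM1, SPR3 and SPO11 were lowest at RC start among the arp5 libraries, and there the 3 genes were still above their highest wild-type libraries. GMC2 was highest at that label, at 9.62 and 11.1 FPKM. MAM1 had a range of 0.99, just under the limit of 1, with an adjusted p of 1.28e-05 by the same F test. Its phase means ran from 17.4 FPKM at RC start to 35.4 at RB late. It passed the limit without some single libraries (range 1.10 without RC start library A).

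The courses over the labels differed between genotypes for 6 of 8 genes, beside 74% of all genes (F test of the interaction in limma), so the count is near the background. For IME1 the log2 difference between genotypes varied by 3.08 over the phases (adjusted p = 1.33e-08). The range was 2.14 for IME2, 1.78 for GMC2, 1.71 for SPR3, 1.48 for MAM1 and 1.16 for UME6, with adjusted p of 0.00331 (GMC2) or lower. With a pseudocount of 0.1, GMC2 had a range of 3.64 and IME1 of 3.24, so their order depends on that choice. SPO11 (0.98) and NDT80 (0.72) had adjusted p of 0.0346 and 0.00129 without a range of 1. With a pseudocount of 0.1, SPO11 had a range of 1.17 (adjusted p = 0.0395, same F test) and passed. The count of 6 thus depends on that choice. SPO11 passed the 2-fold limit in 6 of 24 settings that left out 1 library. Because the labels do not line up, a changed course and a shifted label cannot be told apart here.

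The likeness of the 4 selected genes to each other was described in the same libraries. Over 24 libraries their pairwise Pearson r ran from 0.86 to 0.95, which the selection largely sets. Centred within each genotype, it ran from -0.32 (GMC2 with SPR3) to 0.54 (GMC2 with MAM1). These values are across libraries that share a culture and a scaling, and are descriptions.

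The genes whose log2 levels were most like each member over the 24 libraries were found without centring, so for genes selected on the genotype gap they are in part genes that share that gap. Centred within genotype, the r of the genes named below ran from 0.53 to 0.70 for GMC2, MAM1, SPR3, SPO11 and NDT80 and from 0.85 to 0.93 for IME1, IME2 and UME6. For GMC2 they were SPO23, a gene named for sporulation (r = 0.957), and MAM1 itself (0.954). For MAM1 they were INO80, the ATPase gene of the remodeler that the deleted subunit belongs to (0.962, or 0.59 centred), and MOB2, for a partner of the Cbk1 kinase (0.962). INO80 averaged 26.0 FPKM in wild type and 46.9 in the arp5 deletion. For SPR3 they were ULS1 (0.963) and TOM71, for a mitochondrial import receptor (0.957). For SPO11 they were DBF20, for a mitotic exit kinase (0.950), and PAU4 (0.946), which belongs to a family of near-identical genes that can share reads. For NDT80 they were FIG1, a mating gene (0.970), and YSH1, for an mRNA 3' end nuclease (0.938). For IME2 they were DMC1, for the meiotic recombinase (0.954), and BIG1 (0.951). For IME1 they were PDR10, for a membrane transporter (0.922), and ATG11, for an autophagy adaptor (0.898). For UME6 they were RAD2, for a DNA repair nuclease (0.852), and HMS2 (0.842).

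The wider meiosis and sporulation program was read from 6 lists with 100 genes, of which 98 were tested. Of these, 7 were called higher in the arp5 deletion and 0 lower, beside 1.01% and 0.507% of all genes, with a median difference of 0.34 beside 0.01 over all genes, and 75 of 98 were above 0. The 4 selected genes are among the 7, so the count is not independent of the selection. Another 1 is ECM11, for the partner of Gmc2 (1.44 ± 0.21). It averaged 0.74 FPKM in wild type against 3.80 in the deletion, so it passed the filter only through the group where it is high, and no p is given. The other called genes were PCH2, for an ATPase of the meiotic checkpoint (1.20 ± 0.22, adjusted p = 0.0461), and LDS1, for a protein of spore wall assembly (1.05 ± 0.17, adjusted p = 0.0337), both by limma. ECM11 ran from 0.25 to 1.10 FPKM in wild type and from 2.14 to 5.99 in the deletion, and PCH2 from 2.56 to 6.08 and from 7.18 to 14.6, both without overlap. LDS1 overlapped (3.87 to 8.79 and 8.25 to 15.5 FPKM). Without the 8 genes described here, 90 were tested, 3 were called higher and 0 lower, and the median was 0.30. Of those 90, 3 passed the filter only through the deletion and 0 only through wild type. Without these 3, 2 of 87 were called higher and the median was 0.29. The count of 7 depended on the phases: it was 4, 3, 6, 0, 0 and 1 without RC start, RC mid, OX mid, OX late, RB start and RB late in turn, and 4 after quantile normalization.

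**Figure D2:**
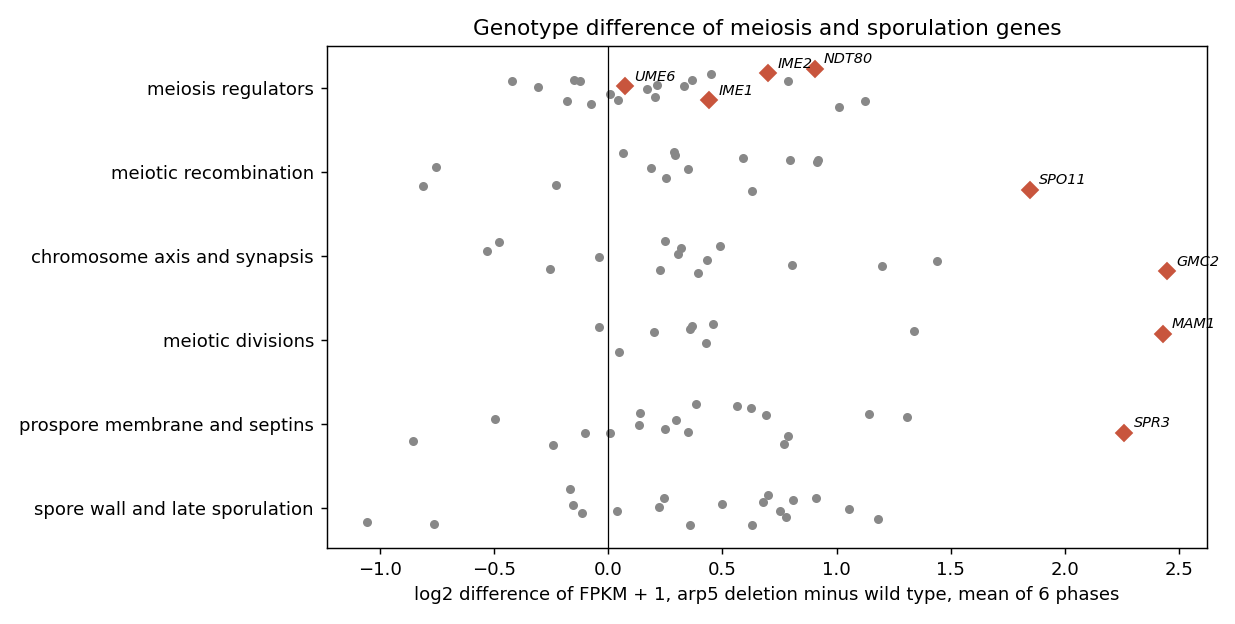
Difference in log2(FPKM + 1) between the arp5 deletion and wild type (horizontal axis, mean of 6 phases) for 98 tested genes in 6 lists (rows); red diamonds are the 8 genes described and grey points the others, with vertical scatter for display only. The 4 genes at 1.85 to 2.45 were selected on this contrast, which fixes their place, and the grey points run from -1.06 to 1.44.

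A further 6 metabolic and stress genes, including CAR1 and CAR2 of arginine breakdown, were listed as Ume6-repressed outside meiosis, which was not tested here. Of these 6, 0 were called in either direction, a count that 1.01% and 0.507% of all genes called would also give. Their median was -0.24, with 5 of 6 below 0 and ACS1, for an acetyl-CoA synthetase, at 1.95 ± 2.08. Cell-type markers were read beside these results. Of 7 a-type mating genes, 0 were called, all 7 were above 0 (median 0.70) and their summed level ran from 3582 to 25686 FPKM in wild type and from 8121 to 25385 in the deletion. Of 4 alpha-type genes, 0 were called, with sums of 74.4 to 418.9 and 217.5 to 814.6 FPKM. Of 8 haploid-specific genes, NEJ1, a DNA end-joining gene that diploid cells turn off, was called lower (-1.75 ± 0.18, adjusted p = 0.00854 by limma), at 12.4 to 16.6 FPKM in wild type and 2.21 to 5.12 in the deletion. Of the 8, 5 were above 0 and 3 below, with a median of 0.21. Beside NEJ1, HO (-0.88) and FUS3 (-0.86) were below 0. FAR1 (0.63) and STE4 (0.45) were the highest, and HO, FUS3, FAR1 and STE4 were not called. The summed level of these 8 ran from 300.8 to 747.4 and from 394.4 to 639.2 FPKM, and no marker of the 3 lists was at 0 throughout. The part of these markers in the meiotic genes' difference was not tested.

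With rapamycin, in another strain without the deletion, UME6 fell by over 2-fold at 90 min. IME2, SPO11 and NDT80 passed the adjusted p with increases under the limit of 1 in log2(FPKM + 1). UME6 stood at 31.1 and 27.5 FPKM in the controls, 18.5 and 21.0 at 45 min and 9.40 and 11.4 at 90 min. The groups, with 2 libraries each, did not overlap, but the share of all genes without overlap was not counted and nothing is read from it. The log2 change was -0.55 ± 0.12 at 45 min (adjusted p = 0.00481) and -1.41 ± 0.12 at 90 min (adjusted p = 2.37e-05, limma). UME6 was the 1 call among the 8 genes at 90 min, beside 18.2% of all genes called higher and 16.8% lower. At 45 min 0 of the 8 were called, beside 11.2% and 13.7%. The share of all genes that passed the adjusted p alone was not counted, so nothing is read from how many of the 8 did. Between 45 and 90 min UME6 fell by a further 0.86 ± 0.12 (adjusted p = 0.000711, limma), under the 2-fold of a call.

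IME2 stood at 5.02 and 4.96 FPKM in the controls, 9.72 and 10.2 at 45 min and 10.95 and 10.04 at 90 min. Its change of 0.87 ± 0.12 at 45 min and 0.94 ± 0.12 at 90 min passed the adjusted p (0.000453 and 0.000239, limma) and not the limit of 1. In FPKM the mean of IME2 went from 4.99 in the controls to 10.5 at 90 min, and that of SPO11 from 4.05 to 8.31. SPO11 stood at 4.19 and 3.91 FPKM, then 6.15 and 5.95, then 7.82 and 8.79. Its changes were 0.48 ± 0.15 (adjusted p = 0.0218) and 0.88 ± 0.15 (adjusted p = 0.00104, limma). Over 9 other settings the change at 90 min reached 1.06 for IME2 and 1.02 for SPO11, so whether they are called depends on the setting. NDT80 stood at 11.1 and 9.69 FPKM, then 11.3 and 11.3, then 17.2 and 16.4. For NDT80 only the change at 90 min passed the adjusted p, at 0.65 ± 0.10 (0.000796, limma), and the step from 45 to 90 min was 0.53 ± 0.10 (0.0034).

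The other 4 genes did not pass at either time. GMC2 stood at 1.59 and 1.91 FPKM in the controls and at 0.84 and 0.68, then 1.58 and 0.53, under rapamycin, with log2 changes of -0.65 ± 0.43 and -0.47 ± 0.43. MAM1 stood at 0.99 and 1.32, then 1.48 and 1.68, then 2.85 and 1.53 FPKM, with changes of 0.26 ± 0.36 and 0.54 ± 0.36. SPR3 stood at 0.52 and 1.17, then 2.52 and 2.04, then 1.17 and 2.00 FPKM, with changes of 0.85 ± 0.38 and 0.49 ± 0.38. IME1 stood at 10.5 and 9.65, then 8.18 and 7.28, then 9.20 and 7.15 FPKM, with changes of -0.34 ± 0.15 and -0.28 ± 0.15. GMC2, MAM1 and SPR3 were under 3 FPKM in all 6 libraries, with SEs of 0.36 to 0.43.

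**Figure D3:**
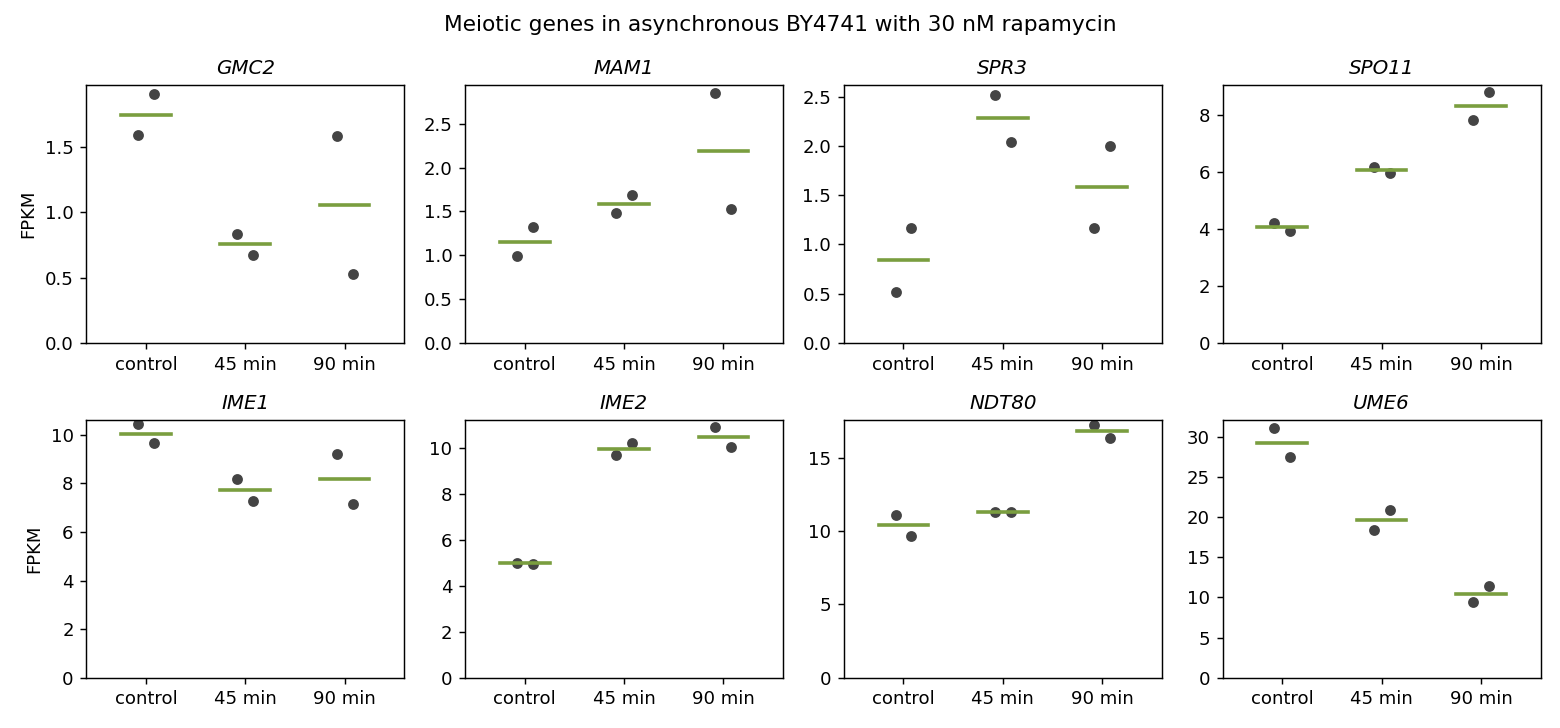
FPKM (vertical axes, from 0) of the 8 genes in asynchronous BY4741 without rapamycin and after 45 and 90 min at 30 nM; points are the 2 biological replicates and green lines their means. UME6 falls from 27.5 to 31.1 FPKM in the controls to 9.40 to 11.4 at 90 min, while IME2 and SPO11 are higher in both treated groups than in the controls.

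The share of all genes called at 45 min was 11.2% higher and 13.7% lower, at 90 min 18.2% and 16.8%, and between the times 6.3% and 4.69%. Of the 94 tested genes of the 6 lists, 21 were called higher and 9 lower at 90 min. The meiotic cohesin gene REC8 (1.85) and the recombination gene SAE3 (2.69) were among those that rose, and PCH2 (-1.45) and SPS4 (-1.71) among those that fell. SAE3 averaged 0.80 FPKM in the controls and 10.63 at 90 min, so it passed the filter only through the treated groups. PCH2 thus was called higher in the arp5 deletion and lower with rapamycin, in strains and tables that were scaled apart. Of the 6 other genes listed as Ume6-repressed, 5 were called higher at 90 min, among them OPI3 (3.38) and CAR1 (3.24). INO1, at 0.12, was not called.

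The ATAC table gives 1 normalized signal per gene for 5193 genes. The libraries are technical pairs over 6 phases of 1 culture per genotype, so p-values over its 24 columns are too small. IME1 ran from 81.1 to 170.1 (median 108.5) in wild type and from 87.0 to 174.5 (median 137.1) in the deletion, with a log2 difference of 0.24 ± 0.13 (adjusted p = 0.12, limma). IME2 ran from 756.3 to 917.8 and from 807.6 to 1009, with a difference of 0.09 ± 0.04 (adjusted p = 0.0401). The genotypes overlapped at both genes and neither passed the 0.5 that a call needs, beside 10.6% of all genes called higher and 9.19% lower. The other 6 genes have no row in the table as given here.

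For those 6 the nearest measured signal was that of the genes beside them. Of the 16 genes that flank the 8, 14 had an ATAC value. Of these 14, 4 were called higher in the arp5 deletion and 0 lower, beside 10.6% and 9.19% of all genes. The adjusted p was passed by 10 of the 14, in both directions. The shares of all genes that passed it, or whose genotypes did not overlap in ATAC, were not counted. Nothing is therefore read from these 10 or from the lack of overlap at genes named below. The largest was at NUP157, a nuclear pore gene that is transcribed away from MAM1, with 312 bases between them. Its signal ran from 35.6 to 56.6 (median 46.6) in wild type and from 132.8 to 203.3 (median 161.6) in the deletion. The difference of 1.81 ± 0.08 (adjusted p = 7.23e-18, limma) ranked 2 of 5193 from the top. NUP157 RNA averaged 20.2 and 17.8 FPKM, a difference of -0.16 ± 0.14 that did not pass (adjusted p = 0.681). The sources used here do not state the window the authors counted for a gene. Among gene pairs under 400 bases apart, the genotype difference in ATAC correlated with r = 0.91 for 443 divergent pairs, 0.11 for 1076 tandem pairs and 0.08 for 975 convergent pairs, as a description across genes. The mean log2 signal of the same pairs correlated with r of 0.86, 0.18 and 0.11. Which bases between NUP157 and MAM1 the value covers is not known.

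The gene on the other side of MAM1, GLE2, for an mRNA export factor, was at 46.5 to 63.4 in wild type and 99.8 to 131.0 in the deletion (1.04 ± 0.06, adjusted p = 7.54e-15). AIM17, upstream of SPO11 in the same orientation, was at 115.5 to 332.4 and 342.4 to 588.2 (0.93 ± 0.14, adjusted p = 1.76e-06). EPT1, upstream of NDT80 and for a phospholipid enzyme, was at 163.1 to 237.4 and 303.1 to 405.7 (0.77 ± 0.06, adjusted p = 2.88e-12). The genotypes did not overlap at any of these 3 genes. GLE2 is convergent with MAM1, and AIM17 and EPT1 are in tandem with SPO11 and NDT80.

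**Figure D4:**
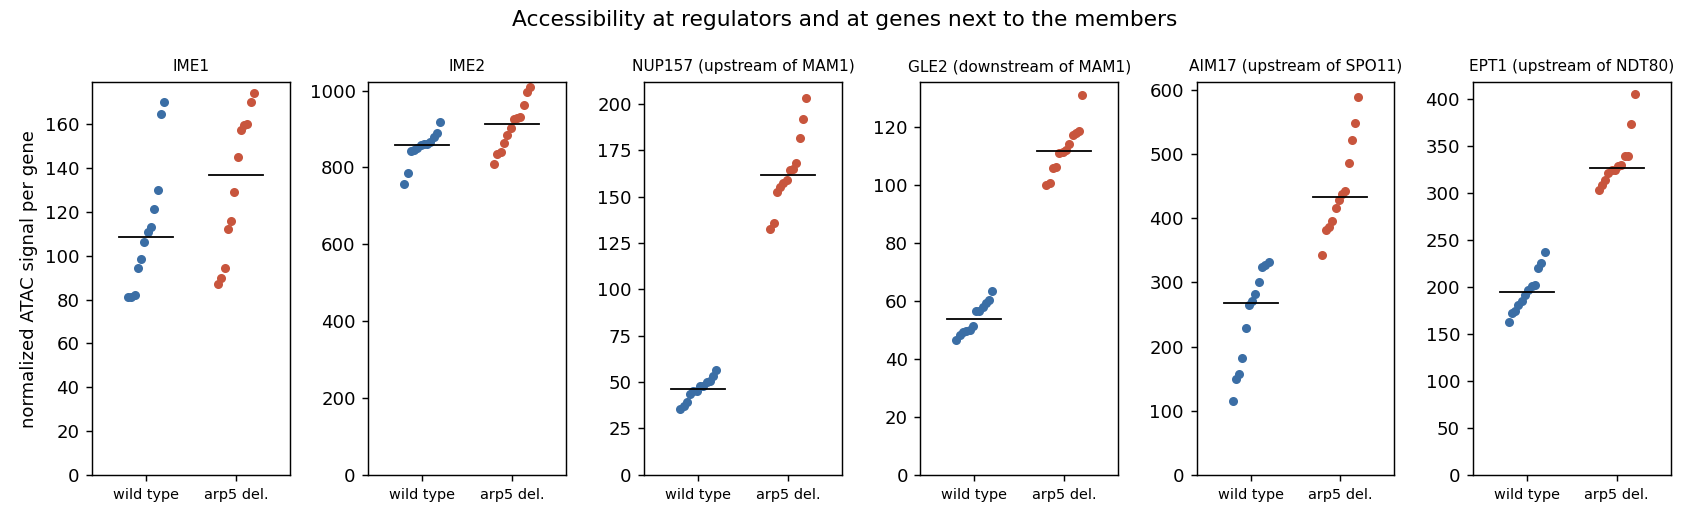
Normalized ATAC signal per gene (vertical axes, from 0, scaled apart) in the 12 columns of wild type (blue) and of the arp5 deletion (red), sorted by value, with black lines at the medians. The genotypes overlap at IME1 and IME2 and are apart at NUP157, GLE2, AIM17 and EPT1, with NUP157 at 35.6 to 56.6 against 132.8 to 203.3.

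On the promoter side of the remaining genes, ATAC differences were -0.02 at ECM7 beside GMC2, -0.35 at PEF1 beside SPR3, -0.40 at RPL43B beside IME1, 0.10 at YJL107C beside IME2 and 0.38 at MSS4 beside UME6. None of these was called. MSS4 was without overlap all the same, at 733.8 to 945.2 in wild type and 967.4 to 1171 in the deletion (adjusted p = 7.71e-09). NPR3, downstream of SPO11, was at -0.43 ± 0.08 (adjusted p = 4.15e-05), with overlapping genotypes. In RNA, none of the 16 neighbors was called and none had every arp5 library above every wild-type library, beside 1.01% of all genes called higher, 0.507% lower and 2.38% without overlap, shares at which 16 genes would give few or none. ERG25, downstream of SPR3, averaged 808.7 and 349.6 FPKM, and AIM17 244.3 and 409.2, with adjusted p of 0.355 and 0.587 (limma). The sources used here do not say whether strand was kept, so RNA from the opposite strand of a gene cannot be told apart.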

How the data were processed

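FPKM values, which correct for gene length and library size, were deposited by the authors (1 table each for the cycle and rapamycin RNA). They also deposited a normalized ATAC signal per gene. Per the submitters' processing notes, Bowtie2, DESeq2, Picard and the build sacCer3 were used; versions and the counting step are not given in the sources used here. RNA was prepared with the MasterPure and TruSeq mRNA kits, per the labels. FPKM columns were matched to samples by name; ATAC columns show the genotype only. Symbols came from the rapamycin table, and positions and neighbors from RefSeq R64.

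Values were analysed as log2(value + 1) with limma 3.58.1 (intensity trend) in R 4.3.3. RNA genes averaging under 1 FPKM were left out, which kept 6510 and 6333, and all 5193 ATAC genes were used. Benjamini-Hochberg adjustment ran over all genes tested. Calls required an adjusted p under 0.05 together with a log2 difference of 1 or more (ATAC 0.5). The genotype fit used the 12 phase means of A and B with the phase label as a block; cycling and interaction used 24 libraries in 12 groups; rapamycin used 3 groups. Reads were recovered as whole multiples for 95.2% to 99.1% of low values (tolerance 0.1 of a read); no count test was run on them. The ATAC values were planned to be read in windows around each gene, but the table has 1 value per gene and no windows. The steps were tested on simulated data. The letters A and B did not pair the libraries.

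The members and lists were chosen with earlier results of these data known. Genes named are the members, their flanking genes, the 2 most alike by r, ARP5, and up to 2 per list and direction among called genes. CAR2, ACS1, INO1, FAR1, STE4, HO, FUS3, INO80's levels and the comparison of gene pairs by orientation were picked after values were seen. MER2 of the lists was not matched and MEI5 failed the filter.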

Additional observations from a re-analysis of the deposited data

Results flagged for a closer look

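The courses over the labelled phases of 6 of the 8 genes differed between wild type and the arp5 deletion by the test of the difference itself, the interaction F test in limma. Of all genes tested, 74% did so too, so the count is near the background. The genotype difference in log2(FPKM + 1) ranged over the phases by 3.08 for IME1, 2.14 for IME2, 1.78 for GMC2, 1.71 for SPR3, 1.48 for MAM1 and 1.16 for UME6. With a pseudocount of 0.1 the range of GMC2 was 3.64, and SPO11 passed as well, with a range of 1.17. IME1 was highest at RC mid in wild type (27.1 and 32.0 FPKM) and at RB start in the arp5 deletion (31.0 and 41.5 FPKM). At the same labels the whole transcript profiles of the cultures also differed, with r from -0.85 to -0.44 over 4117 cycling genes, and the part of that in the 6 genes was not tested.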

How the results depend on the processing

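The genotype difference called 99 genes in all, and 65 after quantile normalization, 196 with no phase block, and 26, 59, 6, 1 and 12 without RC mid, OX mid, OX late, RB start and RB late; the cause was not tested. With library A or B alone it was 68 to 74. Single libraries left out gave 4007 to 4104 cycling genes in wild type, 2076 to 2138 in the arp5 deletion and 4790 to 4860 interactions, and 1514 to 1599, 2193 to 2223 and 661 to 731 calls for rapamycin at 45 min, at 90 min and between the times. The replicate block of A and B gave 4045, 2112 and 4827 calls for cycling in wild type, in the deletion and for the interaction, and moved no count by over 1.5 times; the letters' deviations correlated over 0.1 in 8 of 66 group pairs. A member value under another setting was counted as kept if its direction and side of the threshold stayed. For the genotype differences of GMC2, MAM1, SPR3 and SPO11, which had no test, kept meant a shift under the SD of the differences over phases. Of the member values, 963 were kept, 18 passed the threshold newly, 1 moved and 8 turned in sign, none of them called. These were UME6 over the cycle without OX late (-0.0547) and RB start (-0.0342), NDT80 at 45 min after quantile normalization (-0.0036), and the step from 45 to 90 min for IME1 (-0.0441 after quantile normalization, -0.01 without 45 min replicate 4, and -0.097 to 0.227 over the replicates left out), GMC2 (-0.202 to 0.557) and MAM1 (-0.0285 to 0.578), each lowest without 90 min replicate 5. The planned ATAC windows of another size could not be run on 1 value per gene. Depth limits GMC2, which rests on 0 to 12 reads per wild-type library.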
